A study of Mus musculus with 12 samples.

Results

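The liver genes described here are the enzymes and carriers of the urea cycle and of ammonia handling in the hepatic expression profiles of mice fed a diet that causes steatohepatitis, with or without metformin. The members were listed by their roles, with earlier results of these data known: *Cps1*, *Otc*, *Ass1*, *Asl*, *Arg1*, *Nags*, *Slc25a15*, *Slc25a13*, *Gls2* and *Glud1*. Of these 10 genes, 9 were read by a probe set that names the gene alone, and all 9 passed the filter on dim signals, as did 11099 genes in all. *Gls2*, the liver glutaminase, was not analysed here.

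The urea cycle turns ammonia, which is toxic to the brain, into urea, and in mammals the full cycle runs almost only in hepatocytes, most of all in those around the portal tract. Ammonia and bicarbonate are joined to carbamoyl phosphate in the mitochondrion, ornithine accepts it to give citrulline, and the remaining steps take place in the cytosol, where arginine is split into urea and ornithine. Inherited loss of a cycle enzyme causes a build-up of ammonia in the blood. Metformin is a drug used against type 2 diabetes.

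Livers of C57BL/6 mice were profiled in 3 groups of 4 mice, with 1 array for each mouse. The MCD+HF+Met group had received a methionine- and choline-deficient, high-fat diet containing 0.1% metformin, the MCD+HF group that diet with no drug, and the NC group normal chow, each for 8 weeks. The mice were 8 weeks old when feeding began and the labels describe the livers as fasting; they name no genetic change and do not give the sex of the mice. The comparison of MCD+HF with NC asks what the diet did to these genes and that of MCD+HF+Met with MCD+HF what metformin added, while MCD+HF+Met against NC shows what still differed from normal chow; the MCD+HF arrays serve in the first 2 of these comparisons and each other group also serves in 2, so the comparisons are not independent of each other.

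Signals are the authors' array intensities, scaled so that each array averages 100. A log2 change is the difference of the group means of log2(signal + 10), a scale that understates the change of dim genes, and adjusted p-values are from limma with Benjamini-Hochberg adjustment over 22832 probe sets, called when under 0.05. Each signal belongs to 1 probe set, and levels were not compared between genes. With 4 arrays in a group the number of arrays limits the precision, and the smallest p that an exact permutation test of 4 against 4 mice can give is 0.0286. Arrays of 1 group correlated with r of at least 0.971 over all probe sets tested, and no array was left out.

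Promoter windows, from 250 bases before to 50 bases after the annotated start, were available from RefSeq (GRCm38.p6) for 6 of the 10 members in 7 windows. Of the genes below, 3 are shown: *Otc*, whose signal moved most with the diet, *Nags*, the gene of the enzyme that sets carbamoyl phosphate synthesis, and *Slc25a15*, which passed the test in no comparison. Capitals mark an HNF4A-type motif, AAAGNNCA, which was searched on both strands together with TTNNGCAA (C/EBP type), TGTTCT (glucocorticoid receptor type) and TGATGNAA (ATF4 type).
Otc, chrX:10252055-10252354, plus strand: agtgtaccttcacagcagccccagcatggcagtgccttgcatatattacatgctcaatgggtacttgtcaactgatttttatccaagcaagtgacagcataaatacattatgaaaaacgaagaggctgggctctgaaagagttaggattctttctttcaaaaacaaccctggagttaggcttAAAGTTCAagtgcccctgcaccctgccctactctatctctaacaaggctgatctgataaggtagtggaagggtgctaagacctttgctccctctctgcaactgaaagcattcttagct
Nags, chr11:102145263-102145562, plus strand: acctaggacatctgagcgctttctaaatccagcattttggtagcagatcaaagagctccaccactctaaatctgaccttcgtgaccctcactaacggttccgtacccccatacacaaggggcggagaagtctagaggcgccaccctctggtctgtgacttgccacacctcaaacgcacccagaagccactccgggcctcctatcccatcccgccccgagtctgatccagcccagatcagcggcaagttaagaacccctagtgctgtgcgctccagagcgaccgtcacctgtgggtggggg
Slc25a15, chr8:22398572-22398871, minus strand: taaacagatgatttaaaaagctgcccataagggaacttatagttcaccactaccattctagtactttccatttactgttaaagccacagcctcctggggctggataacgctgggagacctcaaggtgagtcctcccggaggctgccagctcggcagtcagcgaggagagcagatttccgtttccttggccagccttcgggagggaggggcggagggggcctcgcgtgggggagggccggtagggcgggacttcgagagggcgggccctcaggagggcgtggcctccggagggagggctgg
In the *Otc* window the motif match AAAGTTCA began at base -68 relative to the start used for the window, on the plus strand. That start lies inside the gene span given below, downstream of the base chrX:10252230 where the span begins, and the match falls just inside that span. It was the only match to any of the 4 motifs in the 7 windows. The HNF4A type occurred in 19.6% of 32851 promoter windows, the C/EBP type in 10.8%, the glucocorticoid receptor type in 19.0% and the ATF4 type in 3.97%. GC content was 44.3% in the *Otc* window, 57.7% in that of *Nags* and 60.7% in the *Slc25a15* window shown, the other *Slc25a15* window having 79.0%, against a median of 52.7% over all windows. A match is a description of letters and not a site of binding.

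*Nags* (chr11:102145513-102149528, GRCm38.p6), N-acetylglutamate synthase, makes the obligate activator of the first enzyme of the cycle. Its signal was 210.3, 207.9, 167.8 and 178.5 in the MCD+HF+Met mice, 119.4, 128.3, 101.3 and 182.6 in the MCD+HF mice, and 269.0, 343.2, 298.1 and 351.3 in the NC mice. Every mouse on either MCD+HF diet lay below every NC mouse, and only MCD+HF mouse 4 reached into the metformin range. *Nags* fell 2.31-fold in MCD+HF against NC (log2 change -1.21 ± 0.152 SE, limma adjusted p = 1.09e-05). With metformin the value was 0.52 above MCD+HF on the log2 scale, which did not pass the test (limma adjusted p = 0.0736). Leaving out MCD+HF mouse 4 gave 0.67 and a limma adjusted p of 0.0169. Against NC the MCD+HF+Met livers were 1.62-fold lower (log2 change -0.69, limma adjusted p = 0.00194).

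*Cps1* (chr1:67122426-67231267), carbamoyl phosphate synthetase, takes up free ammonia in the mitochondrial matrix and is the rate-limiting step. Signals were 6272.9, 6633.3, 7227.1 and 8046.3 in the MCD+HF+Met mice, 5086.8, 5374.9, 6262.1 and 6663.7 in the MCD+HF mice, and 10725.6, 12883.8, 12502.4 and 10778.6 in the NC mice. Neither MCD+HF group overlapped with NC, while they overlapped with each other. *Cps1* fell 2.01-fold in MCD+HF against NC (log2 change -1.01 ± 0.105 SE, limma adjusted p = 1.61e-06), and after quantile normalization the fall was 0.25 on the log2 scale (log2 change -0.25, adjusted p = 0.00334). The metformin difference was 0.27 (limma adjusted p = 0.172). Against NC the MCD+HF+Met livers were lower by a log2 change of -0.74 (limma adjusted p = 4.92e-05), a call that was lost after quantile normalization (-0.10, adjusted p = 0.205).

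*Otc* (chrX:10252230-10321024), ornithine transcarbamylase, forms citrulline from ornithine and carbamoyl phosphate. It had the largest diet change of the 9 members. Signals were 893.3, 1175.2, 1257.3 and 881.4 in the MCD+HF+Met mice, 712.5, 648.2, 600.2 and 545.6 in the MCD+HF mice, and 5154.9, 6184.6, 5380.9 and 5691.0 in the NC mice. The 3 groups did not overlap anywhere. *Otc* fell 8.84-fold in MCD+HF against NC (log2 change -3.14 ± 0.122 SE, limma adjusted p = 3.96e-11) and was 1.65-fold higher in MCD+HF+Met than in MCD+HF (0.73 ± 0.122 SE, limma adjusted p = 0.00492). It remained 5.34-fold below NC with metformin (log2 change -2.42, limma adjusted p = 1.19e-09).

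Another pair of probe sets also reads *Otc*. The brighter of them had 513.6, 721.5, 828.9 and 628.0 in the MCD+HF+Met mice, 501.4, 460.7, 363.7 and 280.2 in the MCD+HF mice, and 3256.6, 3534.1, 3879.9 and 2766.3 in the NC mice. Its groups were also separate, with a log2 change of -3.06 for MCD+HF against NC (limma adjusted p = 2.7e-09) and of 0.74 for MCD+HF+Met against MCD+HF (limma adjusted p = 0.0288). The dimmest had 19.1 to 31.2 in the MCD+HF+Met mice, 11.3 to 17.2 in the MCD+HF mice and 84.8 to 101.0 in the NC mice; its metformin difference of 0.50 was not past the threshold (limma adjusted p = 0.0818) although the groups were separate. After quantile normalization the *Otc* values were -2.86 for the diet and 0.72 for metformin, both still called. On the authors' scaling both calls also held when any 1 array was left out. The metformin call was lost in the methods' t-test, run on the same values and adjusted (adjusted p = 0.12).

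**Figure D1:**
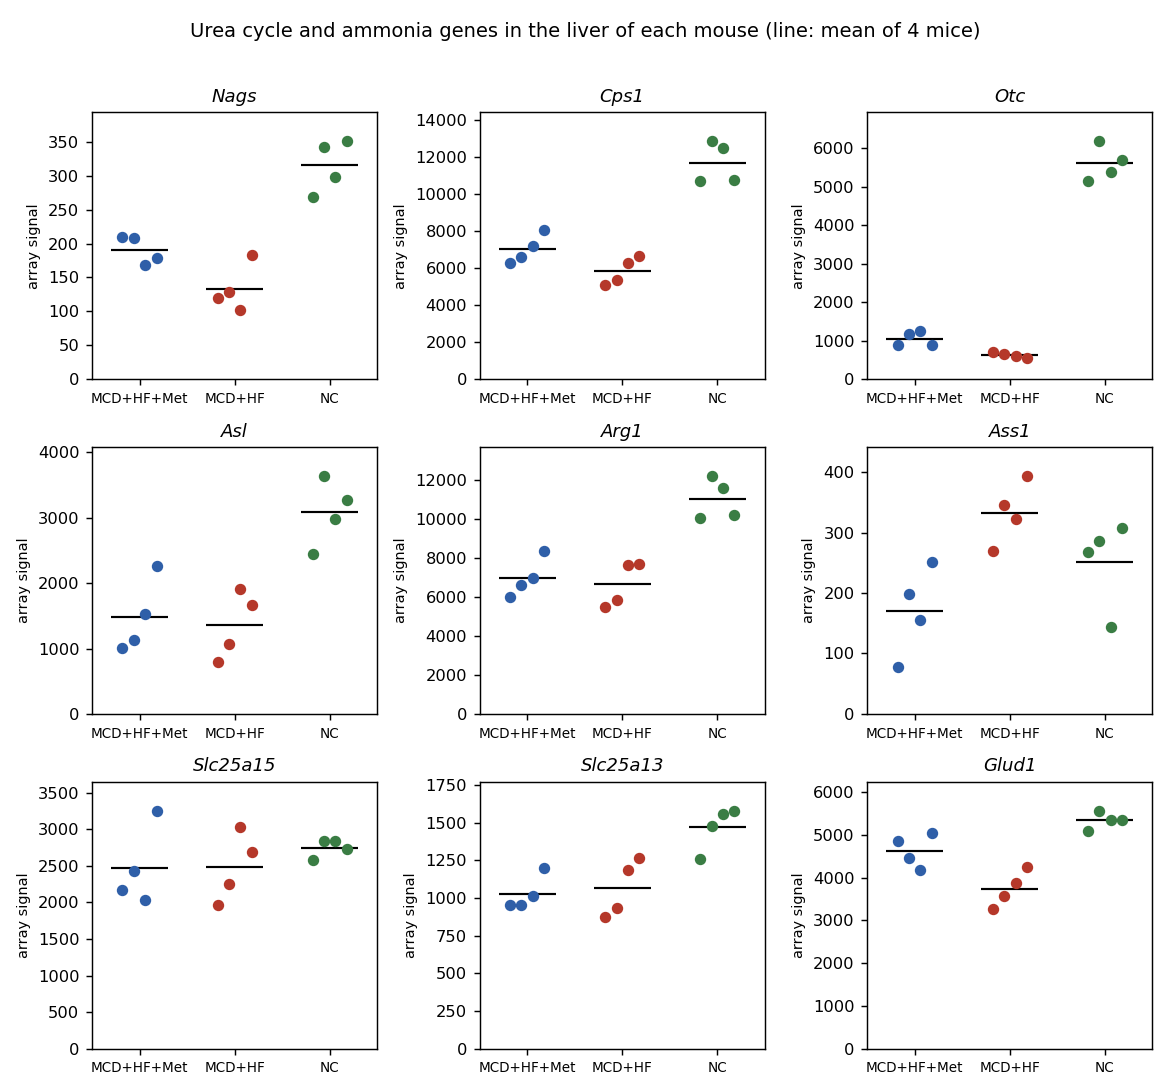
Array signal (vertical axis, scaled so that each array averages 100) of the 9 members in each mouse, with the groups MCD+HF+Met, MCD+HF and NC along the horizontal axis; points are mice and lines are means of 4. *Otc* had 881.4 to 1257.3 in MCD+HF+Met, 545.6 to 712.5 in MCD+HF and 5154.9 to 6184.6 in NC, while *Slc25a15* overlapped among all 3 groups.

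*Ass1* (chr2:31470270-31520670), argininosuccinate synthetase, joins citrulline and aspartate, which brings in the second nitrogen of urea. The probe set that names *Ass1* alone and the one annotated to both *Ass1* and *Gm5424* gave opposite directions for the diet. On the probe set of *Ass1* alone, signals were 77.0, 198.6, 155.5 and 251.1 in the MCD+HF+Met mice, 269.2, 345.3, 322.3 and 393.8 in the MCD+HF mice, and 267.3, 286.2, 144.4 and 308.2 in the NC mice. All 4 metformin mice lay below all 4 MCD+HF mice, and NC overlapped with both. The value for MCD+HF against NC was 0.43 (limma adjusted p = 0.231), that for MCD+HF+Met against MCD+HF -1.02 ± 0.281 SE (limma adjusted p = 0.058), and that for MCD+HF+Met against NC -0.59 (limma adjusted p = 0.108), so that none was called.

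On the shared probe set the signals were 2485.1, 2801.7, 3752.4 and 5443.4 in the MCD+HF+Met mice, 2497.9, 2781.3, 3671.6 and 3943.6 in the MCD+HF mice, and 5853.5, 6718.4, 6032.3 and 6710.1 in the NC mice. Both MCD+HF groups lay wholly below NC and had nearly the same lower end. This probe set fell in MCD+HF against NC (log2 change -0.99 ± 0.197 SE, limma adjusted p = 0.000744) and was lower in MCD+HF+Met than in NC (-0.87, limma adjusted p = 0.00245). MCD+HF+Met and MCD+HF differed by 0.12 (limma adjusted p = 0.786). Which of the transcripts the shared probe set reads was not tested, and the level of *Ass1* is given as uncertain.

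*Asl* (chr5:130011258-130024381), argininosuccinate lyase, releases arginine and fumarate. Its signals were 1011.4, 1131.7, 1524.8 and 2256.9 in the MCD+HF+Met mice, 796.2, 1074.8, 1909.0 and 1662.9 in the MCD+HF mice, and 2448.6, 3637.6, 2984.2 and 3262.9 in the NC mice. The spread within each MCD+HF group was wide, yet all 8 mice lay below the NC mice. *Asl* fell 2.37-fold in MCD+HF against NC (log2 change -1.24 ± 0.26 SE, limma adjusted p = 0.00113) and was 2.16-fold lower in MCD+HF+Met than in NC (limma adjusted p = 0.00309). The metformin difference was 0.13 (limma adjusted p = 0.834), with a 95% interval of -0.42 to 0.68.

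*Arg1* (chr10:24915207-24927470), arginase, splits arginine into urea and ornithine. Signals were 5998.3, 6618.9, 6997.1 and 8349.3 in the MCD+HF+Met mice, 5489.8, 5837.6, 7628.5 and 7690.1 in the MCD+HF mice, and 10049.6, 12226.9, 11609.1 and 10228.3 in the NC mice. NC stood apart and the other groups overlapped. On the authors' scaling *Arg1* fell 1.67-fold in MCD+HF against NC (log2 change -0.74 ± 0.125 SE, limma adjusted p = 0.000187), but quantile normalization turned the sign and ended the call (0.04, adjusted p = 0.758). The metformin difference was 0.08 (95% interval -0.19 to 0.34, limma adjusted p = 0.797), and it too turned in sign after quantile normalization (-0.07). Against NC the value in MCD+HF+Met was -0.66 (limma adjusted p = 0.000571), and -0.04 after quantile normalization (adjusted p = 0.753).

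**Figure D2:**
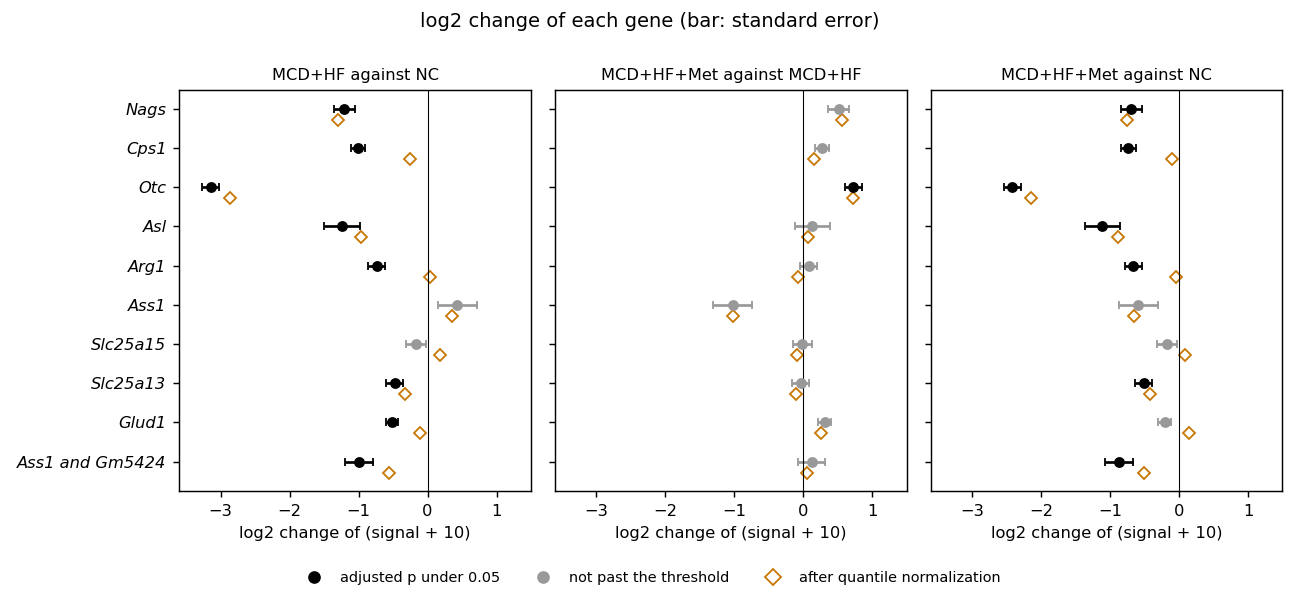
log2 change of (signal + 10) on the horizontal axis for each member and for the probe set shared by *Ass1* and *Gm5424*, in 1 panel for each comparison; circles with bars are the values with their standard error, black where the adjusted p was under 0.05, and open diamonds are the values after quantile normalization. *Otc* stood at -3.14 for MCD+HF against NC and -2.86 after quantile normalization, while *Arg1* stood at -0.74 and 0.04.

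*Slc25a15* (chr8:22375550-22398621), the ornithine carrier ORNT1, exchanges ornithine for citrulline across the inner membrane. Its signals were 2167.4, 2431.1, 2036.8 and 3253.2 in the MCD+HF+Met mice, 1969.5, 2247.5, 3027.5 and 2690.8 in the MCD+HF mice, and 2574.9, 2841.5, 2838.4 and 2737.3 in the NC mice. The 3 groups overlapped, and the NC mice lay closest together. None of the 3 differences passed the test: -0.16 for MCD+HF against NC (95% interval -0.47 to 0.14, limma adjusted p = 0.378), -0.01 for MCD+HF+Met against MCD+HF (limma adjusted p = 0.978) and -0.18 for MCD+HF+Met against NC (limma adjusted p = 0.353). A dimmer probe set gave 0.33, -0.78 and -0.45 in that order, none of them called.

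*Slc25a13* (chr6:6041218-6217304), citrin, exports aspartate to the cytosol for argininosuccinate synthesis. Signals were 957.7, 951.5, 1013.8 and 1198.8 in the MCD+HF+Met mice, 873.6, 936.7, 1185.3 and 1265.0 in the MCD+HF mice, and 1260.6, 1479.9, 1560.3 and 1579.7 in the NC mice. MCD+HF mouse 4 was just above NC mouse 1, and otherwise NC was the higher group. *Slc25a13* fell 1.39-fold in MCD+HF against NC (log2 change -0.47 ± 0.124 SE, limma adjusted p = 0.00604, exact permutation p = 0.0571) and was 1.42-fold lower in MCD+HF+Met than in NC (limma adjusted p = 0.00418). The metformin difference was -0.04 (95% interval -0.30 to 0.23, limma adjusted p = 0.909).

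*Glud1* (chr14:34310727-34345033), glutamate dehydrogenase, releases or fixes ammonia at glutamate in the mitochondrion. Its brightest probe set had 4849.4, 4449.5, 4176.4 and 5054.9 in the MCD+HF+Met mice, 3272.0, 3581.5, 3880.2 and 4241.6 in the MCD+HF mice, and 5093.3, 5563.9, 5351.8 and 5345.5 in the NC mice. The metformin mice lay between the others, overlapping with MCD+HF at 1 mouse and below all NC mice. *Glud1* fell 1.43-fold in MCD+HF against NC (log2 change -0.52 ± 0.09 SE, limma adjusted p = 0.000242), a call that quantile normalization ended (-0.11, adjusted p = 0.243). The metformin difference was 0.31 (limma adjusted p = 0.0704).

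The other *Glud1* probe set had 4163.7, 4271.4, 3652.8 and 4270.9 in the MCD+HF+Met mice, 2906.6, 2969.2, 3019.8 and 3369.8 in the MCD+HF mice, and 4855.1, 4841.3, 4950.8 and 4402.1 in the NC mice. Here the 3 groups were separate. It was 1.33-fold higher in MCD+HF+Met than in MCD+HF (log2 change 0.41 ± 0.081 SE, limma adjusted p = 0.0117), and 1.55-fold lower in MCD+HF than in NC (limma adjusted p = 1.22e-05). The MCD+HF+Met value against NC was -0.22 on this probe set (limma adjusted p = 0.0399) and -0.21 on the brightest (limma adjusted p = 0.0789). Quantile normalization turned the value of the brightest to 0.15.

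**Figure D3:**
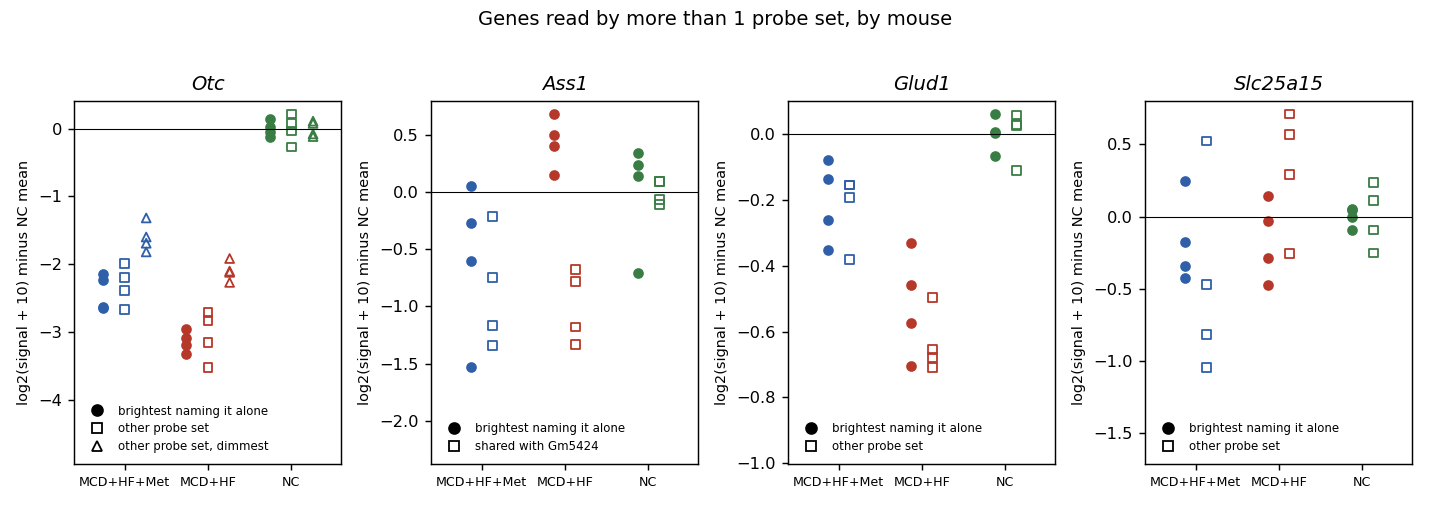
log2(signal + 10) of each mouse minus the NC mean of the same probe set (vertical axis) for the 4 genes read by more than 1 probe set, with MCD+HF+Met, MCD+HF and NC along the horizontal axis; marker shapes are probe sets. The 3 *Otc* probe sets shared their order of groups, whereas the probe set of *Ass1* alone had a change of 0.43 for MCD+HF against NC and the one shared with *Gm5424* -0.99.

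Counted together, 7 of the 9 members fell in MCD+HF against NC and none rose, the other 2 being *Ass1* and *Slc25a15*. Over all genes 20.8% were called lower in that comparison and 27.4% higher, and 18.4% of probe sets were called lower. The median log2 change of the members was -0.74, against 0.05 over all genes. In MCD+HF+Met against MCD+HF, 1 of 9 members was called, *Otc*, which was higher. Here 1.63% of all genes and 1.24% of probe sets were called higher and 2.34% of genes lower, and the medians were 0.13 for the members and 0.01 for all genes. Without MCD+HF mouse 4 the members called were 3, with *Nags* and *Glud1* added, and without MCD+HF+Met mouse 4 or NC mouse 3 they were 2, with *Ass1* added on the lower side. In MCD+HF+Met against NC, 6 of 9 members were lower and none higher, with 18.6% of all genes and 17.5% of probe sets called lower. The medians in that comparison were -0.66 for the members and 0.06 for all genes.

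These counts depended on how the arrays were made comparable. After quantile normalization 5 members were called lower in MCD+HF against NC, 1 higher in MCD+HF+Met against MCD+HF and 4 lower in MCD+HF+Met against NC, and the median log2 changes of the members were -0.25, 0.07 and -0.42, beside -0.03, 0.04 and 0.01 over all genes. The brightest signal on an array was 11539 to 13695 in MCD+HF+Met, 9467 to 11830 in MCD+HF and 19413 to 23473 in NC, a difference that quantile normalization removes by its construction. Scaling to the 75th percentile left the member counts at 7, 1 and 6, and moved the median of all genes to -0.09 for MCD+HF against NC. Of the probe sets called, those that were higher made up 58.1% for MCD+HF against NC, 35.9% for MCD+HF+Met against MCD+HF and 55.9% for MCD+HF+Met against NC, and with scaling to the 75th percentile 42.3%, 51.0% and 45.2%.

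On the authors' scaling the livers held less signal of general hepatocyte genes on the MCD+HF diets. In bulk tissue fewer cells of a type and less RNA per cell cannot be told apart. The summed signal of 9 hepatocyte markers such as *Alb* and *Ttr* was 71554, 72879, 79186 and 87987 in the MCD+HF+Met mice, 63173, 61799, 66879 and 77036 in the MCD+HF mice, and 126798, 143664, 145151 and 124292 in the NC mice. All 9 were lower in MCD+HF than in NC, with a median log2 change of -1.02, but after quantile normalization 4 were lower and 2 higher and the median was 0.00. With metformin against MCD+HF none of the 9 was called and their median was 0.16. No marker of this list was at 0. Periportal markers summed to 9097 to 11307 in MCD+HF+Met, 9686 to 10398 in MCD+HF and 22002 to 27264 in NC, and pericentral markers to 16626 to 19312, 17725 to 19845 and 27917 to 31873 in the same groups. Of the 7 periportal markers tested 5 were lower and 2 higher in MCD+HF against NC, and of the 10 pericentral markers 5 were lower and 1 higher, against 20.8% of all genes lower and 27.4% higher. After quantile normalization these counts were 3 lower and 1 higher, and 3 and 3. Their part in the member results was not tested.

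Markers of other cell types are given here beside 27.4% of all genes called higher and 20.8% lower in MCD+HF against NC. Stellate and myofibroblast markers summed to a mean of 3230 in MCD+HF+Met, 4123 in MCD+HF and 1250 in NC. Of these 10 markers, 9 were higher in MCD+HF against NC and 3 lower in MCD+HF+Met against MCD+HF. Among the 9, *Col1a1* had an NC mean of 17.1, under the filter on dim signals, and was tested only through the other groups. It could pass only with more signal there, so its diet call cannot test the direction. Macrophage markers averaged 4911 in MCD+HF+Met, 7500 in MCD+HF and 5032 in NC, with 6 of 10 higher and 1 lower for the diet and 3 of 10 lower with metformin, where 2.34% of all genes were lower. Endothelial markers averaged 1932 in MCD+HF+Met, 1948 in MCD+HF and 1834 in NC. For the diet 3 of these 10 were higher and 3 lower, and none was called with metformin. All 6 cholangiocyte markers tested, of 10 listed, were higher in MCD+HF than in NC. Their NC means, 6.3 to 13.9, lay under the filter on dim signals, so they were tested only through the other groups. Such a marker could pass only with more signal in those groups, so this count cannot test the direction. The *Actb* ratio of 3 prime to 5 prime control signal, a sign of RNA integrity, was 1.735 ± 0.114 in MCD+HF+Met, 1.537 ± 0.0694 in MCD+HF and 1.727 ± 0.14 in NC (SD, n = 4 each). The same ratio of *Gapdh* was 0.757 ± 0.0451 in MCD+HF+Met, 0.699 ± 0.0123 in MCD+HF and 0.710 ± 0.0122 in NC. The part of these cells and of RNA quality in the member results was not tested.

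Within a group, many members had their highest or their lowest signal in the same mouse. How often each mouse was highest or lowest over all genes was not counted. In MCD+HF, mouse 4 had the highest signal for 6 of 9 members and mouse 1 the lowest for 7, and in MCD+HF+Met mouse 4 was highest for 7. In NC, mouse 1 was lowest for 8 members and mouse 2 highest for 6. *Otc* ran the other way in MCD+HF, where mouse 1 had its highest signal and mouse 4 its lowest. The hepatocyte marker sums were likewise highest in mouse 4 of both MCD+HF groups. Their lowest was mouse 1 in MCD+HF+Met but mouse 2 in MCD+HF. In NC these sums were highest in mouse 3, which was highest for no member, and lowest in mouse 4, which was highest for 3.

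**Figure D4:**
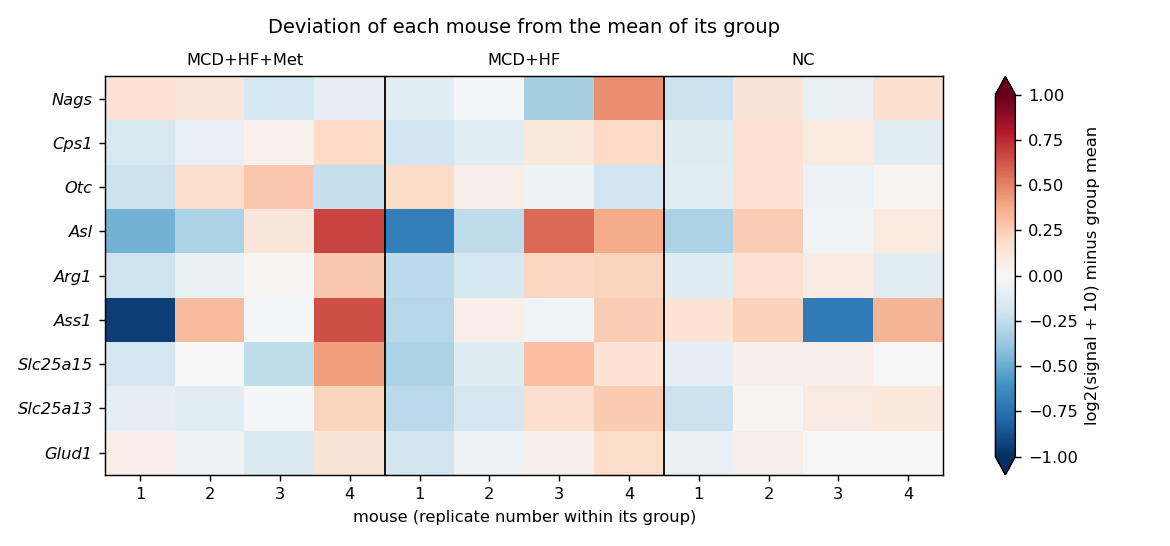
Deviation of log2(signal + 10) of each mouse from the mean of its group (colour, red above and blue below) for the 9 members (rows), with mice 1 to 4 of MCD+HF+Met, MCD+HF and NC as columns. In MCD+HF, mouse 4 was highest for 6 of 9 members and mouse 1 lowest for 7, with *Otc* in the opposite order.

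Around the cycle, genes that feed it with bicarbonate, glutamate and aspartate, or modify its first enzyme, had shares of calls near those of all genes. Of 10 tested, 3 were higher and 3 lower in MCD+HF against NC (30.0% each, against 27.4% higher and 20.8% lower over all genes), and none was called in MCD+HF+Met against MCD+HF. *Car5a*, the mitochondrial carbonic anhydrase that supplies bicarbonate to *Cps1*, averaged 62.1 ± 24.9 in MCD+HF+Met, 44.4 ± 5.91 in MCD+HF and 222 ± 83.7 in NC (SD, n = 4 each). It fell 4.12-fold in MCD+HF against NC (limma adjusted p = 1.28e-05) and the metformin difference was 0.33 (limma adjusted p = 0.536). *Sirt3*, a mitochondrial deacetylase, fell by 0.84 on the log2 scale with the diet (log2 change -0.84, limma adjusted p = 0.000192). *Sirt5*, also on this list, was not called for the diet (-0.05, limma adjusted p = 0.76). *Gpt2*, the mitochondrial alanine aminotransferase, rose 1.51-fold (limma adjusted p = 0.000911), and *Slc25a22*, a mitochondrial glutamate carrier, rose 1.96-fold (limma adjusted p = 0.00581).

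Of 11 genes of glutamine synthesis and of ammonia and amino acid transport, 4 were higher and 4 lower in MCD+HF against NC (36.4% each, against 27.4% higher and 20.8% lower over all genes). Among those higher, *Slc7a1* and *Slc1a5* had NC means of 17.3 and 17.05, under the filter of 20. They were tested only through the other groups. *Glul*, glutamine synthetase, which traps the ammonia that escapes the urea cycle in pericentral hepatocytes, averaged 3219 ± 957 in MCD+HF+Met, 3787 ± 492 in MCD+HF and 3343 ± 429 in NC (SD, n = 4 each), and was called in none of the 3 comparisons (limma adjusted p = 0.467 for the diet and 0.444 for metformin). After quantile normalization its diet value of 0.57 passed the threshold (adjusted p = 0.0382). *Slc38a3*, the SNAT3 glutamine transporter, fell 2.73-fold in MCD+HF against NC (limma adjusted p = 1.56e-08). *Asns*, asparagine synthetase, averaged 682 ± 215 in MCD+HF and 236 ± 241 in NC (SD, n = 4 each) and rose 3.89-fold (limma adjusted p = 0.00451), although the mice of these groups overlapped (exact permutation p = 0.0571) and leaving out 1 array moved the log2 change between 1.47 and 2.56. *Slc7a1*, the cationic amino acid transporter CAT1, rose 2.97-fold (limma adjusted p = 0.000415). *Aqp8*, an aquaporin that also passes ammonia, averaged 169 ± 30.2 in MCD+HF+Met, 95.2 ± 30.8 in MCD+HF and 336 ± 19.8 in NC (SD, n = 4 each). It was the only gene of this list called with metformin (log2 change 0.80, limma adjusted p = 0.0203), and for the diet it fell 3.39-fold (limma adjusted p = 8.34e-07). Its metformin call was lost without MCD+HF mouse 2 (adjusted p = 0.0623) or without MCD+HF+Met mouse 1 (adjusted p = 0.0561).

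Genes that use arginine, ornithine and proline numbered 10 tested, with 3 higher (against 27.4% of all genes) and 5 lower (against 20.8%) in MCD+HF against NC and none called with metformin. *Odc1*, ornithine decarboxylase of polyamine synthesis, averaged 873 ± 72.7 in MCD+HF+Met, 683 ± 159 in MCD+HF and 345 ± 53.2 in NC (SD, n = 4 each), a 1.93-fold rise with the diet (limma adjusted p = 0.0001). *Aldh18a1*, which starts proline synthesis from glutamate, averaged 38.1 ± 7.65 in MCD+HF and 15.0 ± 5.65 in NC (SD, n = 4 each) and was called higher in MCD+HF (limma adjusted p = 0.00308). At signals this near the offset its log2 change of 0.96 depended on the setting, with 0.58 to 1.44 over the alternatives. Its NC mean lay under the filter of 20, so *Aldh18a1* was tested only through the other groups. *Oat*, ornithine aminotransferase, averaged 3192 ± 575 in MCD+HF+Met, 4039 ± 365 in MCD+HF and 6003 ± 663 in NC (SD, n = 4 each), and fell 1.48-fold with the diet (limma adjusted p = 0.0015), a call that quantile normalization ended (-0.11, adjusted p = 0.426). *Agmat*, agmatinase, fell 1.81-fold (limma adjusted p = 4.7e-06) and *Prodh*, proline dehydrogenase, 1.66-fold (limma adjusted p = 0.000276). *Aqp9*, a channel for glycerol and urea and the only urea channel tested of 4 listed, fell by 0.90 on the log2 scale with the diet (log2 change -0.90, limma adjusted p = 1.12e-06) and was higher with metformin than without it (0.36, limma adjusted p = 0.0391), the metformin call being lost after quantile normalization (adjusted p = 0.0649). That call was also lost without any 1 of 7 arrays: NC mouse 2, MCD+HF mouse 1, 2 or 3, and MCD+HF+Met mouse 1, 2 or 4 (adjusted p = 0.053 to 0.122).

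Enzymes that release ammonia or serve amino acid breakdown were lower for 5 of 6 tested in MCD+HF against NC (83.3%, against 20.8% of all genes), and 2 of 6 were higher with metformin (1.63% of all genes). *Hal*, histidine ammonia lyase, averaged 220 ± 33.5 in MCD+HF+Met, 256 ± 79.6 in MCD+HF and 1205 ± 162 in NC (SD, n = 4 each); it fell with the diet (log2 change -2.23, limma adjusted p = 5.12e-08), and the metformin value was -0.18 (limma adjusted p = 0.615). *Gldc*, the decarboxylase of the glycine cleavage system, averaged 376 ± 144 in MCD+HF+Met, 133 ± 25.9 in MCD+HF and 521 ± 77.4 in NC (SD, n = 4 each). It fell with the diet (log2 change -1.90, limma adjusted p = 2.09e-06) and was higher with metformin (1.39, limma adjusted p = 0.00208). *Cbs*, cystathionine beta synthase, averaged 759 ± 81.2, 440 ± 16.8 and 1427 ± 172 in MCD+HF+Met, MCD+HF and NC, with a diet value of -1.67 (limma adjusted p = 6.72e-09) and a metformin value of 0.77 (limma adjusted p = 0.00126). *Cth*, cystathionine gamma lyase, fell with the diet by 0.73 on the log2 scale (log2 change -0.73, limma adjusted p = 0.00194), and its metformin value was -0.22 (limma adjusted p = 0.493). By the methods' t-test the metformin calls of *Gldc*, *Cbs*, *Aqp8* and *Aqp9* were lost (adjusted p = 0.112, 0.0832, 0.184 and 0.135), as were the diet calls of *Cth*, *Asns*, *Slc25a22* and *Ppargc1a* (adjusted p = 0.0577, 0.0879, 0.0607 and 0.0579).

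Among 12 genes for receptors and transcription factors linked to urea cycle genes or hepatic amino acid metabolism, 8 were lower (66.7%, against 20.8% of all genes) and 2 higher (16.7%, against 27.4%) in MCD+HF against NC, and none was called with metformin. *Klf15*, a factor for amino acid breakdown genes in fasting, averaged 465 ± 96.5 in MCD+HF+Met, 632 ± 87.5 in MCD+HF and 1269 ± 301 in NC (SD, n = 4 each), and fell with the diet (log2 change -0.97, limma adjusted p = 0.000236). *Cebpa*, the C/EBP alpha factor, fell with the diet (log2 change -1.06, limma adjusted p = 0.00192), as did *Foxa2* (-0.97, limma adjusted p = 0.00306) and *Gcgr*, the glucagon receptor (-0.53, limma adjusted p = 0.00398). For *Foxa2* the mice of MCD+HF and NC overlapped (exact permutation p = 0.0571). *Ppargc1a*, a coactivator induced by fasting, rose 2.91-fold (limma adjusted p = 0.00135), although the mice of the groups overlapped. *Hnf4a*, named after its values were seen because of the match in the *Otc* window, had a diet value of -0.84 (limma adjusted p = 1.68e-05) and a metformin value of 0.27 (limma adjusted p = 0.192). The metformin values of *Foxa2* (0.79, limma adjusted p = 0.0738) and *Ppargc1a* (-0.86, limma adjusted p = 0.166) passed the threshold without MCD+HF mouse 1 (adjusted p = 0.0106 and 0.0145), and that of *Foxa2* also without MCD+HF+Met mouse 4 (adjusted p = 0.0346), with the replicate block (adjusted p = 0.0345) and with scaling to the 75th percentile (adjusted p = 0.0408).

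Over the 12 arrays the patterns most like those of the 4 members with the largest diet changes were measured by the root mean square difference of log2 values, each gene centred on its own mean. Closest to *Otc* were *Haao* (0.162) and *Aspdh* (0.19), which had diet values of -3.17 and -3.26. Closest to *Asl* were *Ahcy* (0.247) and *Lcat* (0.256), and closest to *Nags* were *Col18a1* (0.181) and *Hsd3b7* (0.185). *Cps1* was matched most closely by *Apoa1* (0.06), itself a hepatocyte marker, and by *Hpx* (0.069).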

How the data were processed

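Livers of 12 mice were hybridised by the authors to Affymetrix Mouse Genome arrays, 1 array for each mouse, and GCOS with default settings gave 1 signal for each of 45101 probe sets. The deposited values are signal intensities on a linear scale, which the authors scaled so that each array averages 100; the mean after leaving out 2% of probe sets in each tail was 100 on each array. The labels gave the group and the number of each mouse. GCOS detection and change calls were not used here, and the files give no read depth.

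Gene names came from the platform annotation, brought up to date through gene identifiers: 34945 probe sets had 1 symbol, 932 several and 9160 none, and 64 were controls. Each gene was read on its brightest probe set naming it alone. Controls were left out, log2(signal + 10) was computed and a probe set was tested where its signal averaged 20 or more over the arrays. No further normalization was applied. A single limma model (version 3.58.1, R 4.3.3) held all 3 groups, with lmFit followed by eBayes and its trend option, and was first tested on simulated data. Because nothing states that the mice of a group came from separate litters or cages, p-values measure the spread between these mice. Alternatives were other offsets (0 and 32), no filter and a filter of 50, quantile normalization, a replicate block, robust variances, the compared groups only, each array left out, the methods' t-test, the methods' rule (1.5-fold with an unadjusted p under 0.05) and other probe sets of a gene. Scaling to the 75th percentile and the probe set shared by *Ass1* and *Gm5424* were chosen after seeing the data.

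The members and lists were chosen with earlier results of these data known. Named were all members, up to 4 genes of each list with the largest called changes, and *Glul*, *Oat*, *Car5a*, *Gcgr* and *Klf15* whatever their values. *Hnf4a*, *Sirt5* and *Slc1a5* were named after their values were seen and are not in the 102 groups looked at below.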

Additional observations from a re-analysis of the deposited data

Results flagged for a closer look

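Of 102 groups of 4 mice looked at, over the members and the named genes of the lists, 5 held a mouse far from the others, with a gap above the critical value of Dixon's test; chance alone marks about 1 in 20 groups, and none of the 5 was a group of a member. For *Car5a*, NC mouse 4 had 347.9, where the other NC mice had 177.1 to 184.6. For *Aldh18a1*, NC mouse 2 had 6.5, where the others had at least 17.5. For *Hal*, NC mouse 2 had 1448.3, where the others had 1117.6 to 1129.2. For *Gldc*, NC mouse 4 had 405.7, where the others had 550.5 to 571.6. For *Prodh*, MCD+HF mouse 1 had 315.2, where the others had 418.5 to 430.1. With any 1 array left out, the fall of *Car5a* in MCD+HF against NC lay between -2.13 and -1.82 on the log2 scale, and that of *Gldc* between -2.02 and -1.77.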

How the results depend on the processing

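Of 609 values of members under an alternative, 572 kept their direction and their side of the threshold. With the sign kept, 5 lost a call and 12 gained one, and 20 changed sign. A value that changed sign was counted only there. For MCD+HF against NC these included *Arg1*, which also lost its call after quantile normalization, and *Ass1*, which gained one on the shared probe set. The cause of these changes was not tested. Members called in MCD+HF+Met against MCD+HF numbered 1, and 2 with an offset of 32, 0 by the methods' t-test and 2 by the methods' rule, with 1 to 3 when 1 array was left out. They stayed at 7 for MCD+HF against NC and ranged from 6 to 8 for MCD+HF+Met against NC when 1 array was left out. Over all probe sets, 786 were called in MCD+HF+Met against MCD+HF, against 476 with no filter, 8 by the methods' t-test and 254 (without MCD+HF mouse 2) to 837 when 1 array was left out, with 297 without MCD+HF+Met mouse 2. The methods' rule called 6073 probe sets in MCD+HF against NC, where limma called 9999, and 5259 in MCD+HF+Met against NC, where limma called 9057.

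Deviations of same-numbered mice from their group means correlated with r of -0.134 to 0.251, highest for mouse 4 of MCD+HF+Met and MCD+HF; since not every pair was over 0.1, the numbers were not taken to pair the mice. With the replicate block 7, 2 and 6 members were called in MCD+HF against NC, MCD+HF+Met against MCD+HF and MCD+HF+Met against NC; the block changed 1 member call, that of *Ass1* in MCD+HF+Met against MCD+HF (-1.02, limma adjusted p = 0.0306), and among the other named genes added the metformin calls of *Slc38a3* (adjusted p = 0.0386) and *Foxa2* (adjusted p = 0.0345).

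Signs turned as follows on the log2 scale. For *Ass1*, the probe set shared with *Gm5424* gave -0.99 for MCD+HF against NC and 0.12 for MCD+HF+Met against MCD+HF. After quantile normalization *Arg1* stood at 0.035 and -0.072 in these comparisons, *Slc25a15* at 0.18 for MCD+HF against NC and 0.093 for MCD+HF+Met against NC, *Glud1* at 0.15 and *Glul* at 0.18 for MCD+HF+Met against NC, and *Slc7a1* at 0.054 and *Aldh18a1* at 0.051 for MCD+HF+Met against MCD+HF. The dimmer *Slc25a15* probe set gave 0.33 for MCD+HF against NC. With scaling to the 75th percentile, values for MCD+HF+Met against MCD+HF turned to 0.046 for *Slc25a15*, 0.021 for *Slc25a13*, 0.03 for *Slc7a1* and 0.026 for *Aldh18a1*. With 1 array left out, values for MCD+HF+Met against MCD+HF lay within -0.095 to 0.322 for *Asl*, -0.013 to 0.15 for *Arg1*, -0.15 to 0.09 for *Slc25a15*, -0.125 to 0.051 for *Slc25a13*, -0.12 to 0.14 for *Slc7a1*, -0.15 to 0.11 for *Aldh18a1*, -0.267 to 0.015 for *Hal*, -0.10 to 0.31 for *Cebpa* and -0.034 to 0.139 for *Gcgr*. For MCD+HF+Met against NC, *Glul* lay within -0.24 to 0.14.

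The dimmest *Otc* probe set, with 11.3 to 17.2 in the MCD+HF mice, *Slc7a1*, with a mean of 17.3 in NC, and *Aldh18a1*, with a mean of 15.0 in NC, lay near the offset of 10, so that their log2 changes are understated.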
